A study of Homo sapiens with 24 samples.

Results

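Dasatinib added on top of SGI-110 is described here gene by gene, from the authors' deposited table that compares the combination of both drugs with SGI-110 alone. Its members are all 29639 genes with a Wald statistic in that table, which are all 29639 genes of the series. The series held 24 RNA libraries from Rh30, an alveolar rhabdomyosarcoma line, and RD, an embryonal rhabdomyosarcoma line. Each line was treated for 5 days with DMSO, SGI-110 at 0.5 µM, dasatinib, or SGI-110 at 0.5 µM together with dasatinib, in 3 biological replicates, so that the combination and SGI-110 groups make up 12 of the 24 libraries. Both are established cell lines, and the labels name no engineered allele.

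The deposited tables hold no value per library and name no cell line. Each value below is therefore a log2 change, obtained as the Wald statistic times the standard error in the authors' deposited table, and written with that standard error (±). Positive values mean a higher level with dasatinib added. The largest standard error in the tables was 6.01, which is the limit for 3 libraries per treatment in a fit of 24 and lies above the limit of 4.25 for 6 per treatment. The changes are accordingly read as those of 1 line, which the tables do not name, whereas the mean normalised count of a gene covers all 24 libraries. Depth per library is unknown.

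Dasatinib blocks the SRC family and ABL tyrosine kinases, which sit below integrins and growth factor receptors and pass signals to the actin cytoskeleton, ERK, STAT3 and the transcriptional coactivators YAP and TAZ. SGI-110 (guadecitabine) is broken down to decitabine, a cytidine analogue that is built into new DNA and traps DNA methyltransferases there. Methylation is then lost as cells divide, and silenced genes, among them germline genes and the repeats that can start an interferon response, may become active. Rhabdomyosarcoma cells carry the muscle regulators MYOD1 and myogenin but do not finish muscle differentiation. The muscle identity of the material was plain in the mean counts: 5182 for MYOD1, 5684 for MYOG (myogenin), 6849 for DES (desmin), 11865 for CHRNA1 (the muscle acetylcholine receptor) and 268 for MYF5, against a median of 24.5 over all genes.

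The promoters of 6 genes are printed first because they come from 4 lists of which more members fell than rose when dasatinib was added. They are the RefSeq sequences of build GRCh38.p14, from 250 bases before the annotated start up to it, read 5′ to 3′ on the gene's own strand. Capitals mark the motif named with each gene, searched on both strands with overlapping matches kept. CTGF (CCN2 in RefSeq), a secreted matricellular protein and YAP target, had 3 matches to GGAATG, the sequence bound by TEAD factors. ISG15, IFIT1 and IFIT5, antiviral proteins, had matches to GAAANNGAA, the core of the interferon-stimulated response element. ACTC1, the cardiac alpha-actin also made in immature muscle, had 1 CArG box, the element bound by SRF. MSMO1, a sterol oxidase of cholesterol synthesis, had 4 CCAAT boxes. CTGF, IFIT1 and IFIT5 were chosen after their values were seen, and the others come from the rule for named genes.
CTGF (chr6:131951373-131951622, minus strand): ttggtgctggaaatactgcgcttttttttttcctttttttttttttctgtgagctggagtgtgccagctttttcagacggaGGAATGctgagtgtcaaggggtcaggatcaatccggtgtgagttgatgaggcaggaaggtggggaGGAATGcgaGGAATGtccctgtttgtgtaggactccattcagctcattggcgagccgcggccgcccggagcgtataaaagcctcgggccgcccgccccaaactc
ISG15 (chr1:1013247-1013496, plus strand): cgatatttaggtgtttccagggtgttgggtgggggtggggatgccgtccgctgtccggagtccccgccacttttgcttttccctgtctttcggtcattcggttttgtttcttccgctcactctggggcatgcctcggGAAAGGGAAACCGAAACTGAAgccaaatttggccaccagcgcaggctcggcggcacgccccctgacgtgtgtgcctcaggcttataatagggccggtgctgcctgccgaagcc
IFIT1 (chr10:89392373-89392622, plus strand): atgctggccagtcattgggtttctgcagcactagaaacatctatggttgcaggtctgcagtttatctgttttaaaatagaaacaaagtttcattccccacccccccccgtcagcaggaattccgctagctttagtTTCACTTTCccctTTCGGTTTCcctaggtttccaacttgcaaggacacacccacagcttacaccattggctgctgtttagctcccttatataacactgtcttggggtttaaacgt
IFIT5 (chr10:89414318-89414567, plus strand): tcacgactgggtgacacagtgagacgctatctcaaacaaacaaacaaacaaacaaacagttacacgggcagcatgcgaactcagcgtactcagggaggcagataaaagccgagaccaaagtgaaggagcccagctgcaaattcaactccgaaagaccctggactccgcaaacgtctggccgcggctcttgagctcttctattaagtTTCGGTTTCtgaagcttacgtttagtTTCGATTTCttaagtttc
ACTC1 (chr15:34795550-34795799, minus strand): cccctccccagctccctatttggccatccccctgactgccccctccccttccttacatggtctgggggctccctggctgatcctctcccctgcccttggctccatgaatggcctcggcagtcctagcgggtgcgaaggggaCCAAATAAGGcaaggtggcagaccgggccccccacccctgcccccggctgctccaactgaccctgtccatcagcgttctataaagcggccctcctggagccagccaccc
MSMO1 (chr4:165327419-165327668, plus strand): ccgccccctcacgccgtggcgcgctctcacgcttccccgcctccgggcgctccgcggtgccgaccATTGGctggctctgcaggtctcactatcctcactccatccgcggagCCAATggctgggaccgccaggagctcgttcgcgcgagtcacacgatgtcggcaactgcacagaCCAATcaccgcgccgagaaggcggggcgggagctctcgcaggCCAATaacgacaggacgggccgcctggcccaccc

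These sequences go with different changes. CTGF was -0.82 ± 0.085 and ISG15 was -1.60 ± 0.088 on top of SGI-110. IFIT1 fell by 2.00 ± 0.17, while IFIT5, whose promoter also had 2 matches, stood at -0.047 ± 0.085 and did not pass the test. ACTC1 was -1.06 ± 0.076 and MSMO1 was -1.44 ± 0.097. Of 14546 gene names with a RefSeq promoter, the GAAANNGAA motif was in 21 of 32 interferon-stimulated members against 7.06% of all 27305 promoters, and 16 of those 21 fell against 5 of the 11 without it. GGAATG was in 6 of 18 YAP and TAZ target promoters against 11.9% of all, and 4 of the 6 fell against 9 of the 12 without it. The CArG box was in 11 of 20 promoters of the SRF list against 1.14% of all, and 5 of the 11 fell against 7 of the 9 without it. CCAAT was in 14 of 17 promoters of the cholesterol list against 33.0% of all, and 10 of the 14 fell against 2 of the 3 without it. A match is a description of the letters in the window and not a bound site.

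Dasatinib on top of SGI-110 changed the level of 7097 genes at a deposited adjusted p under 0.05, of 22743 genes with an adjusted p. Higher levels were found for 3237 genes (14.2% of those tested) and lower levels for 3860 (17%). The falls were larger than the rises: among called genes measurable in both groups the median change was -0.60 for the falls and 0.34 for the rises. Among these, 1096 genes fell and 331 rose by at least 1 log2. A group counts as measurable when its standard error, solved from the deposited tables, was under 1.18 log2, the value for 3 libraries at 0.5 counts each. Over the 24666 genes measurable in both groups the median change was -0.035, and over the 11759 genes with a mean count of at least 100 it was 0.018. Of those 11759 genes 2791 rose and 2607 fell, a larger share each way than among all tested genes. For those 11759 genes the 25th and 75th percentiles were -0.19 and 0.18 and the 5th and 95th were -0.71 and 0.47, so that most changes were small. Their median standard error was 0.084.

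Changes on top of SGI-110 were set beside those of dasatinib without SGI-110, to ask whether the drug acts alike in both settings. Dasatinib alone raised 3636 genes (17.8% of 20445 tested) and lowered 2696 (13.2%), with a median of -0.0036 over measurable genes, in libraries apart from those of the combination and SGI-110 groups. Of the genes that rose on top of SGI-110, 1410 also rose alone, which is 43.6% of the first list and 38.8% of the second. Of those that fell, 1076 also fell alone, which is 27.9% of the first list and 39.9% of the second. Opposite directions were found for 256 genes that rose and 418 that fell on top of SGI-110. Across 11523 genes with a mean count of at least 100 and a measurable level in all 4 treatments, the changes with and without SGI-110 had a Pearson r of 0.42 and a Spearman rho of 0.31. These describe genes of the same libraries, which are not independent replicates. The test of the difference called 1804 genes higher on top of SGI-110 than alone (6.09% of 29639) and 2517 lower (8.49%). Of the 29639 genes 20422 were measurable in all 4 treatments, and a difference is hard to detect in the others. Both shares are thus lower than among well-counted genes, which limits them as a measure beside the lists below. The test assumes that both deposited comparisons are of the same line and the same fit.

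**Figure D1:**
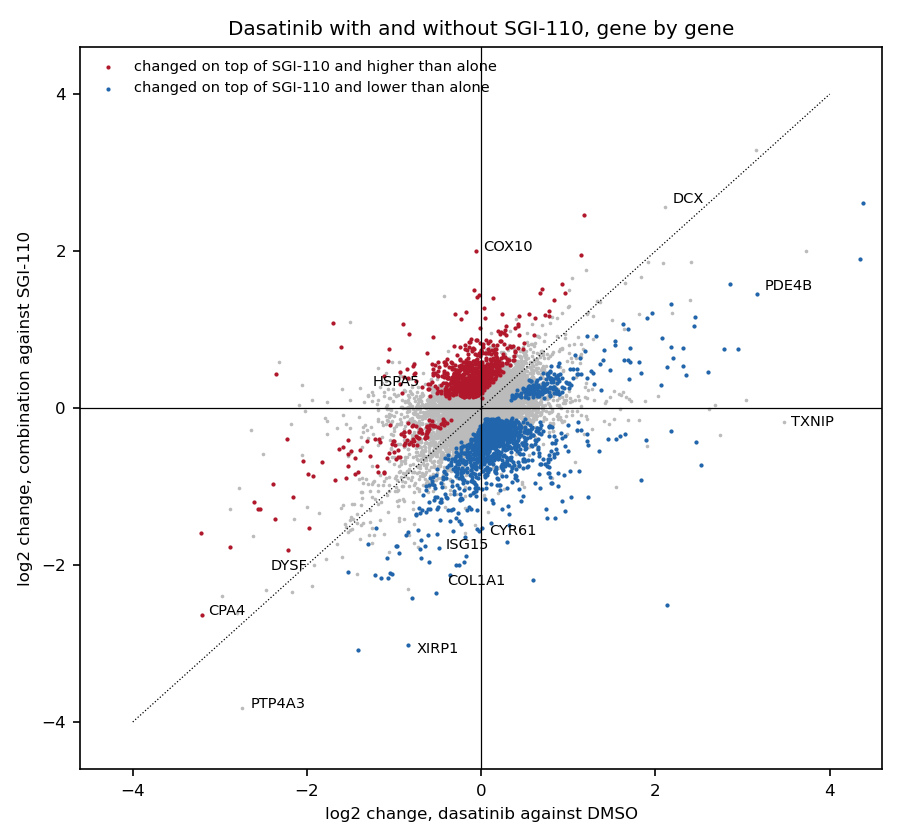
Log2 change with dasatinib alone (horizontal) against that on top of SGI-110 (vertical) for the 11523 genes with a mean count of at least 100 and measurable in all 4 treatments; the dotted line marks equal change. Red and blue points passed the deposited test on top of SGI-110 and the test of the difference, higher or lower than alone. TXNIP lies far right at 3.47 alone and -0.18 on top of SGI-110.

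Among genes with a mean count of at least 100 and a standard error under 0.5, PRRX1, a mesenchymal homeobox factor of limb and face, rose most (3.54 ± 0.17; chr1:170662728-170739419, plus strand), followed by CAPN6, a calpain without protease activity (3.28 ± 0.26), and LGR5, an R-spondin receptor (2.96 ± 0.38). DCX (doublecortin), a microtubule protein of migrating neurons, rose by 2.56 ± 0.16, and DIO2, the deiodinase that activates thyroid hormone, rose by 2.46 ± 0.11. ACKR3, a scavenging receptor for the chemokine CXCL12, rose by 1.95 ± 0.12, IDUA, a lysosomal iduronidase, by 2.41 ± 0.21, and the brain-enriched genes LRFN5 and OLFM1 by 2.17 ± 0.21 and 2.00 ± 0.16. AFAP1L2, an adaptor for SRC, rose by 1.89 ± 0.11 and LA16c-312E8.4, for which no role is given, by 2.62 ± 0.14, and both rose more with dasatinib alone (4.35 ± 0.28 and 4.38 ± 0.22). PRRX1, LGR5 and LRFN5 had no measurable level in DMSO, and IDUA had none in DMSO or in dasatinib. PDE4B, a cyclic AMP phosphodiesterase (1.45 ± 0.067), SMOC1, a matricellular protein (1.67 ± 0.082), and PON2, a paraoxonase (0.93 ± 0.043), were among the 6 rises with the largest Wald statistic.

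COX10, which makes heme A for cytochrome c oxidase, had the largest Wald statistic of any rise (2.00 ± 0.069, deposited adjusted p = 1.51e-181; chr17:14069496-14208677, plus strand, GENCODE 29 on GRCh38). Dasatinib alone left it at -0.059 ± 0.076 and SGI-110 alone at -0.088 ± 0.076 against DMSO, and the combination stood at 1.91 ± 0.070. Neighbouring genes, looked up after this value was seen, also rose: HS3ST3B1, a heparan sulfate sulfotransferase downstream of COX10, by 1.14 ± 0.13, the long noncoding AC005224.2 by 2.29 ± 0.22, CDRT15, at a mean count of 9.1, by 2.38 ± 0.46 and COX10-AS1, which lies head to head with COX10, by 0.52 ± 0.097. Against DMSO, however, COX10-AS1 stood at -0.70 ± 0.097 with SGI-110 and at -0.18 ± 0.094 with the combination, so that it did not rise above DMSO. CDRT15 already stood at 5.97 ± 1.26 with SGI-110, with no measurable level in DMSO or dasatinib. With the combination HS3ST3B1 was at 1.29 ± 0.14 and AC005224.2 at 1.62 ± 0.21 against DMSO. Farther out on either side, ELAC2 was at -0.087 ± 0.048 and PMP22 at -0.42 ± 0.075 on top of SGI-110. Strand use in the authors' counting is not given in the sources used here, so reads from opposite strands at this locus cannot be told apart.

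PTP4A3, a phosphatase of the PRL family tied to cell migration, fell most among genes with a mean count of at least 100 (-3.82 ± 0.44), followed by C1S, a protease of the complement pathway (-3.09 ± 0.13), and the collagen COL26A1 (-3.03 ± 0.41). XIRP1, an actin-binding protein of muscle attachment sites, fell by 3.02 ± 0.15, OLFM2 by 2.74 ± 0.33 and the carboxypeptidase CPA4 by 2.63 ± 0.070, with an adjusted p listed as 0. MYBPH, a thick filament protein, was -2.61 ± 0.19, the collagen COL5A3 was -2.55 ± 0.44, and UNC45B, the chaperone that folds muscle myosin, was -2.39 ± 0.27. DYSF (dysferlin), which reseals muscle membranes, was -1.81 ± 0.072, and ACSBG1, an acyl-CoA synthetase, was -1.89 ± 0.072. MEGF6 fell by 2.42 ± 0.13 and DNAH3, an axonemal dynein, by 2.51 ± 0.10. OLFM2 had no measurable level in DMSO or dasatinib, COL26A1 had none in DMSO and COL5A3 had none in dasatinib.

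Of 12 genes of the kinases that dasatinib blocks (the SRC family, its inhibitor CSK and the ABL kinases), 1 rose and 3 fell, where 14.2% of all tested genes rose and 17% fell. FYN rose by 0.19 ± 0.075, a call lost when changes were centred on the median, and ABL2 fell (-0.80 ± 0.056). LCK (-1.51 ± 0.39), a kinase of blood cells that stood at a mean count of 11.1, also fell and had no measurable level in DMSO or dasatinib. The other gene that fell is not reported here. SRC (-0.15 ± 0.073), YES1 (0.065 ± 0.071), ABL1 (0.090 ± 0.059), LYN (-0.28 ± 0.12), FRK (-0.012 ± 0.12), FGR (-1.07 ± 0.91) and CSK (-0.068 ± 0.076) did not pass the test, and BLK had no measurable level. Among 23 other kinases bound by the drug, 7 rose and 5 fell. The PDGF receptor PDGFRB fell by 1.44 ± 0.13 and the ephrin receptor EPHB2 by 0.90 ± 0.097, while EPHA5 rose by 0.97 ± 0.20 and SIK2 by 0.38 ± 0.069. Without SGI-110, 3 of the 12 SRC and ABL genes rose and 1 fell.

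Targets of YAP and TAZ, coactivators that follow adhesion and cytoskeletal tension, fell as a group. In this list 18 of 25 fell and none rose, where 17% of all tested genes fell and 14.2% rose. The median change was -0.61 beside -0.035 for all measurable genes. CYR61, a secreted ligand of integrins, fell by 1.52 ± 0.060 (deposited adjusted p = 1.24e-139), the receptor tyrosine kinase AXL by 1.56 ± 0.086, MYOF, a membrane repair protein, by 1.18 ± 0.079 and the growth factor TGFB2 by 2.36 ± 0.17. Dasatinib alone gave 4 rises and 8 falls in the same 25 genes. CYR61 did not fall with dasatinib alone. It stood at 2.43 ± 0.064 with SGI-110, at 0.012 ± 0.068 with dasatinib and at 0.91 ± 0.066 with the combination, each against DMSO. The combination thus lay between DMSO and SGI-110. The difference between its changes with and without SGI-110 was -1.54 ± 0.091 (Wald test of the difference, adjusted p = 2.00e-60). CTGF, whose promoter is printed above, rose with dasatinib alone (0.88 ± 0.24) and fell on top of SGI-110.

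Targets of SRF, which reads the pool of free actin, and other cytoskeletal genes also fell. Here 15 of 24 were lower and 1 higher, with a median of -0.48, beside 17% and 14.2% of all tested genes. MYL9, a light chain of nonmuscle myosin, fell by 1.82 ± 0.097, with no measurable level in DMSO or dasatinib. TPM1, a tropomyosin, was -0.98 ± 0.055, the coiled-coil protein FILIP1L was -1.10 ± 0.097, and ACTC1 fell as given above. TPM2 was the exception at 0.29 ± 0.070. The abundant cytoplasmic actins moved less: ACTB was at -0.11 ± 0.063 and ACTG1 at 0.074 ± 0.062, neither past the test. Focal adhesion genes were split, with 4 higher and 9 lower of 23. NEDD9, a docking protein of the CAS family that SRC phosphorylates, fell by 2.03 ± 0.33, the tensin TNS1 by 0.55 ± 0.051 and paxillin (PXN) by 0.28 ± 0.043, whereas DOCK1 rose by 0.27 ± 0.058 and PARVA by 0.26 ± 0.063. Integrins gave 8 lower and 2 higher of 16. ITGA3, a laminin receptor, fell by 2.09 ± 0.081 and ITGA4 by 1.17 ± 0.077, while ITGB8, which activates latent TGF-beta, rose by 0.66 ± 0.088.

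Matrix genes mostly fell. Of 32 collagens and matrix genes 19 fell and 7 rose, with a median of -0.38 against 0.086 with dasatinib alone. COL1A1, the main fibrillar collagen, fell by 2.00 ± 0.059 (chr17:50183289-50201632, minus strand). It stood at 4.50 ± 0.068 with SGI-110, at -0.29 ± 0.078 with dasatinib and at 2.50 ± 0.069 with both, against DMSO, so that the rise seen with SGI-110 was smaller with dasatinib added. THBS1 (thrombospondin) was -0.75 ± 0.050, COL12A1 was -0.93 ± 0.063 and the basement membrane protein NID1 was -0.96 ± 0.065. COL3A1 and COL4A1 went the other way (0.71 ± 0.065 and 0.57 ± 0.064) and also rose with dasatinib alone (0.48 ± 0.068 and 0.66 ± 0.064). Of 24 proteases and inhibitors of the matrix 13 fell and 2 rose, with the versican-cleaving ADAMTS1 at -0.64 ± 0.035, ADAMTS6 at -1.62 ± 0.10 and the inhibitor TIMP3 at -0.98 ± 0.059. TGF-beta targets were mixed, with 7 lower and 4 higher of 18, where 17% of all tested genes fell and 14.2% rose. BHLHE40 (-1.75 ± 0.096), a transcriptional repressor, fell, while ID3 (1.16 ± 0.099), an inhibitor of MYOD1 and its partners, and SMAD6 (0.72 ± 0.11) rose.

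**Figure D2:**
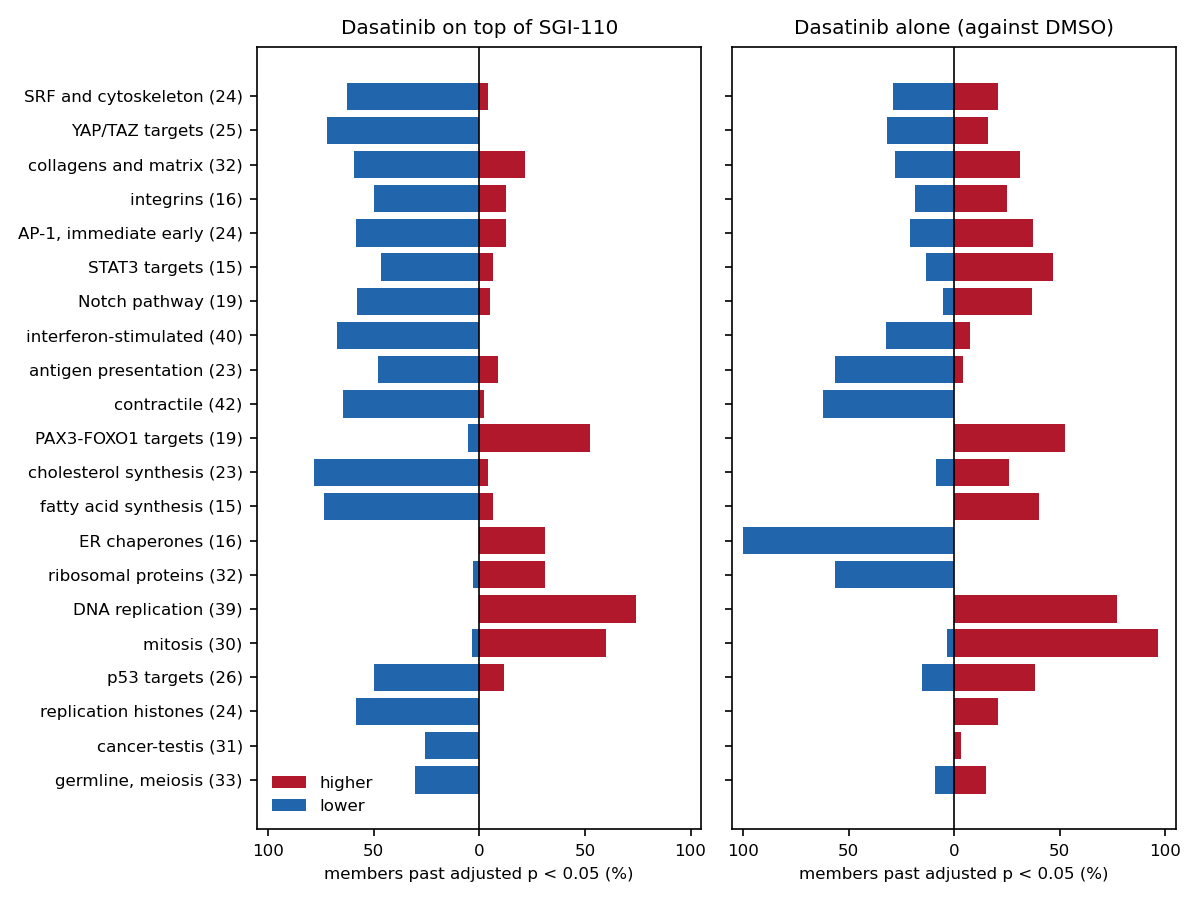
Share of each gene list past a deposited adjusted p under 0.05 (higher to the right in red, lower to the left in blue, in percent of the members found, whose number stands in brackets), for dasatinib on top of SGI-110 (left) and dasatinib alone (right). On the left 18 of 25 YAP and TAZ targets and 27 of 40 interferon-stimulated genes are lower; on the right all 16 ER chaperones are lower and 29 of 30 mitosis genes are higher.

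Immediate early genes, the first genes induced by growth signals, mostly fell, with 14 of 24 lower, 3 higher and a median of -0.38. For this and the other lists of the paragraph, the shares over all tested genes were 17% lower and 14.2% higher. KLF6 was -0.82 ± 0.062, JUN was -0.64 ± 0.069, MYC was -0.65 ± 0.068 and ATF3 was -0.56 ± 0.070, whereas EGR1 and EGR2 rose by 0.50 ± 0.11 and 0.99 ± 0.24. FOS, named after its values were seen, was -0.40 ± 0.11 on top of SGI-110 and 1.89 ± 0.11 with dasatinib alone. Of 21 feedback and output genes of the ERK pathway, 8 fell and 6 rose. CCND1 (cyclin D1) was -0.46 ± 0.047 and the cytokine LIF was -0.94 ± 0.11, while the ERK phosphatase DUSP6 and the transcription factor ETV4 rose by 0.91 ± 0.059 and 0.56 ± 0.078. Of 15 STAT3 targets 7 fell and 1 rose. SOCS3, the feedback inhibitor of cytokine receptors, fell by 1.40 ± 0.084, the repressor BCL6 by 1.32 ± 0.095, the cytokine receptor OSMR by 0.90 ± 0.094 and the kinase PIM1 by 0.88 ± 0.10. PIM1 rose with dasatinib alone (0.78 ± 0.11). In the Notch pathway 11 of 19 members fell and 1 rose, with the ligand JAG1 at -0.72 ± 0.076, the receptors NOTCH3 and NOTCH1 at -0.62 ± 0.077 and -0.46 ± 0.074 and a single rise in the target HEYL (0.30 ± 0.057).

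Interferon-stimulated genes fell when dasatinib was added: 27 of 40 were lower and none was higher, with a median of -0.61. Among all tested genes 17% were lower and 14.2% higher. ISG15, a ubiquitin-like protein, fell by 1.60 ± 0.088 (deposited adjusted p = 5.25e-71). DDX60, a helicase of the RNA sensing pathway, fell by 2.12 ± 0.13, IFIT2, which binds foreign RNA, by 1.96 ± 0.13, and IFI44 by 1.12 ± 0.063. SGI-110 had raised these genes against DMSO, ISG15 by 2.27 ± 0.097, DDX60 by 1.30 ± 0.13, IFIT2 by 2.46 ± 0.14 and IFI44 by 1.44 ± 0.065. With both drugs ISG15 stood at 0.67 ± 0.10, IFIT2 at 0.50 ± 0.15, IFI44 at 0.32 ± 0.067 and DDX60 at -0.82 ± 0.14 against DMSO. The first 3 thus lay between DMSO and SGI-110, and DDX60 lay below DMSO. Dasatinib alone lowered 13 of the 40 and raised 3. The test of the difference placed 15 members lower on top of SGI-110 than alone and 1 higher, beside 8.49% and 6.09% of all 29639 genes. STAT2, a transcription factor of the pathway named after its values were seen, moved less at -0.25 ± 0.054.

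Antigen presentation genes fell more often than they rose, with and without SGI-110. Of 23 members 11 fell and 2 rose on top of SGI-110, and 13 fell and 1 rose with dasatinib alone. Over all tested genes 17% fell and 14.2% rose on top of SGI-110, and 13.2% fell and 17.8% rose alone. HLA-B was -0.84 ± 0.076 on top of SGI-110 and -1.45 ± 0.079 alone. The peptide transporter TAP1 was -0.87 ± 0.078, and ERAP1, which trims peptides in the ER, rose by 0.56 ± 0.098. HLA class I genes are alike in sequence, and reads may be split between them. Of 29 inflammatory genes driven by NF-kappaB 9 fell and 3 rose, among them the adhesion molecule ICAM1 (-1.36 ± 0.16) and, on the higher side, TNFAIP3 (0.53 ± 0.065) and NFKB1 (0.46 ± 0.059). ICAM1 had no measurable level in DMSO or dasatinib.

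**Figure D3:**
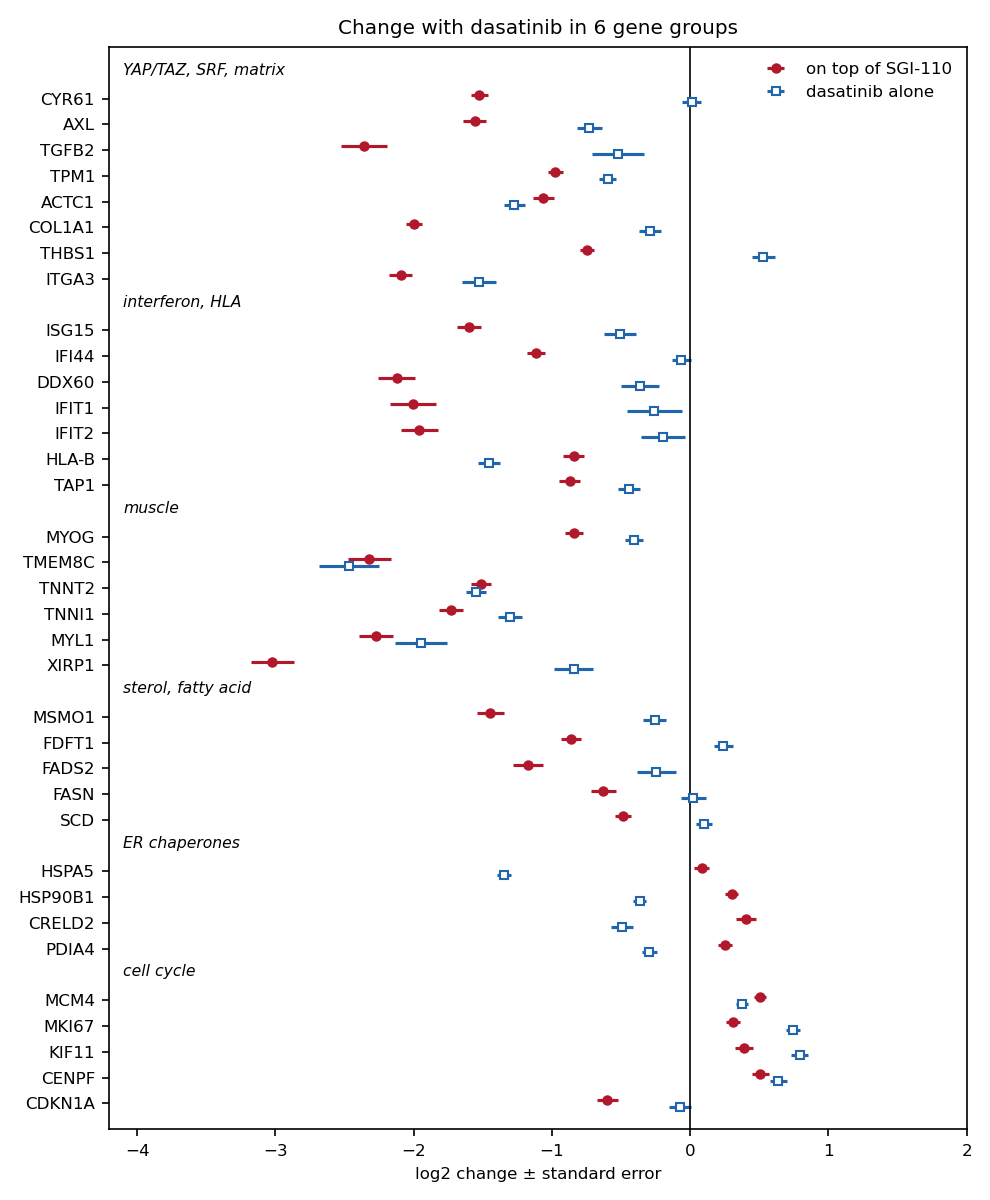
Log2 change with its deposited standard error for genes of 6 groups, on top of SGI-110 (filled circles) and with dasatinib alone (open squares). IFIT2 lies at -1.96 against -0.20 and MSMO1 at -1.44 against -0.26 ± 0.081, whereas HSPA5 lies at 0.083 against -1.34.

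Contractile genes fell with the drug whether or not SGI-110 was present. On top of SGI-110, 27 of 42 fell and 1 rose, with a median of -1.06 over the 40 measurable. With dasatinib alone 26 fell and none rose, with a median of -0.91 over 35. The shares that fell over all tested genes were 17% on top of SGI-110 and 13.2% alone, and 14.2% and 17.8% rose. TNNT2 and TNNI1, troponins of slow and embryonic muscle, were -1.51 ± 0.074 and -1.73 ± 0.089 on top of SGI-110 and -1.55 ± 0.073 and -1.30 ± 0.086 alone. MYL1, a myosin light chain, was -2.27 ± 0.12 on top of SGI-110 and -1.95 ± 0.19 alone. XIRP1 fell further on top of SGI-110 than alone (-0.84 ± 0.14), a difference of -2.18 ± 0.21 (adjusted p = 6.50e-23). The single rise was MYOM2, at a mean count of 10.8 (2.36 ± 0.77).

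Regulators of muscle fate were less uniform, with 6 lower and 4 higher of 21, where 17% of all tested genes fell and 14.2% rose. TMEM8C (myomaker), needed for myoblast fusion, fell by 2.32 ± 0.16 and MYOG by 0.84 ± 0.066. MYOD1 stood at 0.084 ± 0.12 and MYF5 at 0.22 ± 0.094, neither past the test. PAX3 rose by 0.54 ± 0.071 and ID3 as given above. Of 12 genes of the neuromuscular junction 5 fell and 3 rose, among them AGRN (agrin) at -0.85 ± 0.088 and CHRNA1 at 0.38 ± 0.043. Of 17 muscle calcium genes 7 fell and 3 rose, with the calcium channel CACNA1S at -1.77 ± 0.27, JPH2 at -1.13 ± 0.13 and the ryanodine receptor RYR3 at 0.55 ± 0.096. Reported targets of PAX3-FOXO1, the fusion factor of alveolar rhabdomyosarcoma, mostly rose, with 10 of 19 higher, 1 lower and a median of 0.32. The line behind these changes is not named and may be the embryonal RD, so activity of the fusion cannot be read from this list. The receptor tyrosine kinase ALK rose by 1.47 ± 0.096, the neural factor POU4F1 by 0.83 ± 0.058 and the oxidase PIPOX by 0.99 ± 0.079. Dasatinib alone raised 10 of the same 19 and lowered none. FOXO1, whose gene supplies one end of the fusion, rose by 0.94 ± 0.071 on top of SGI-110 and by 0.96 ± 0.071 alone.

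DNA replication genes rose in both settings. On top of SGI-110, 29 of 39 rose and none fell, with a median of 0.29, and alone 30 rose and none fell, with a median of 0.28. Rises made up 14.2% of all tested genes on top of SGI-110 and 17.8% alone. The test of the difference placed 6 of the 39 higher and 6 lower on top of SGI-110 than alone. The helicase subunits MCM4 and MCM3 rose by 0.50 ± 0.043 and 0.33 ± 0.045. Mitosis genes rose less on top of SGI-110, with 18 of 30 higher, 1 lower and a median of 0.19, against 29 higher, 1 lower and a median of 0.70 alone. The test of the difference placed 26 of the 30 lower on top of SGI-110 than alone and none higher, beside 8.49% and 6.09% of all genes. MKI67, the proliferation marker Ki-67, rose by 0.31 ± 0.052 on top of SGI-110 and by 0.74 ± 0.052 alone. The spindle motor KIF11 rose by 0.39 ± 0.063 and by 0.79 ± 0.063. CENPF, a kinetochore protein, rose by 0.51 ± 0.063 and by 0.64 ± 0.063, a difference that did not pass the test. FOXM1, the transcription factor of the mitotic genes, was 0.50 ± 0.054 and 0.39 ± 0.054, which did not pass it either.

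Genes that answer to p53 fell more often than they rose. Of 26 p53 targets 13 fell and 3 rose, where 17% of all tested genes fell and 14.2% rose. PLK2 was -0.91 ± 0.048, the death receptor TNFRSF10B was -0.58 ± 0.067 and CDKN1A (p21) was -0.60 ± 0.077, while TP53I3 rose by 0.40 ± 0.066. Dasatinib alone raised 10 of these targets and lowered 4. Of 21 G1 cyclins and CDK inhibitors 7 fell and 5 rose, beside 2607 and 2791 of the 11759 genes with a mean count of at least 100. CDKN2B was at -0.90 ± 0.12 and CDK4 at 0.42 ± 0.063. Of 28 regulators of apoptosis 8 fell and 5 rose, beside 17% and 14.2% of all tested genes. The list is thus not read as moved in 1 direction. The survival factor BCL2L1 fell by 0.97 ± 0.073, and the death-promoting PMAIP1 and BBC3 fell by 0.98 ± 0.085 and 0.89 ± 0.16. Genes under FOXO control gave 8 lower and 2 higher of 22, with the muscle ubiquitin ligase FBXO32 at -2.10 ± 0.18 and CITED2 at -1.13 ± 0.089.

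Replication histones, the proteins that package new DNA, fell. Of 24 found, 14 fell and none rose, with a median of -0.67, against 5 higher and none lower with dasatinib alone. Among all tested genes 17% fell and 14.2% rose on top of SGI-110. The linker histone HIST1H1C stood at 5.74 ± 0.11 with SGI-110 and at 4.61 ± 0.11 with both drugs against DMSO, a change of -1.13 ± 0.072 on top of SGI-110. HIST1H2BG was -1.49 ± 0.12 and HIST2H2BE was -1.02 ± 0.095. Most histone messages end without a poly(A) tail and the libraries select for one, so these counts cover the tailed fraction. Near-identical histone genes may also share reads.

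Genes of sterol and fatty acid synthesis, which SREBP factors drive, fell on top of SGI-110. Of 23 cholesterol genes 18 fell and 1 rose, with a median of -0.42, whereas alone 2 fell and 6 rose. Falls on top of SGI-110 made up 17% of all tested genes and rises 14.2%. MSMO1 fell by 1.44 ± 0.097 and squalene synthase FDFT1 by 0.86 ± 0.071. INSIG1, the ER anchor that holds SREBP factors back, fell by 2.04 ± 0.11, with no measurable level in DMSO or dasatinib. PMVK rose by 0.42 ± 0.14. FDFT1 was at 0.24 ± 0.068 with dasatinib alone. Of 15 fatty acid genes 11 fell and 1 rose, with the desaturases FADS1 and FADS2 at -0.45 ± 0.039 and -1.17 ± 0.11, SCD at -0.48 ± 0.058 and fatty acid synthase FASN at -0.63 ± 0.091. The test of the difference placed 14 of 23 cholesterol genes and 11 of 15 fatty acid genes lower on top of SGI-110 than alone, beside 8.49% of all genes, and none higher.

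Chaperones of the endoplasmic reticulum showed the reverse pattern. All 16 fell with dasatinib alone, where 13.2% of all tested genes fell and 17.8% rose, with a median of -0.54. On top of SGI-110 none fell and 5 rose, and all 16 were placed higher on top of SGI-110 than alone, beside 6.09% of all genes. HSPA5 (BiP), the main chaperone of the compartment, was -1.34 ± 0.052 alone and 0.083 ± 0.052 on top of SGI-110. Its difference was 1.43 ± 0.073 (adjusted p = 1.77e-80). SGI-110 alone had lowered it to -1.25 ± 0.052 and both drugs to -1.17 ± 0.052 against DMSO. HSP90B1, CRELD2 and PDIA4 rose by 0.30 ± 0.047, 0.40 ± 0.073 and 0.25 ± 0.052. DDIT3 (CHOP), a stress transcription factor, was -1.40 ± 0.066 alone and -0.12 ± 0.067 on top of SGI-110. Of 25 ATF4 response genes 7 rose and 1 fell, the serine synthesis enzymes PHGDH, PSAT1 and PSPH among the rises (0.72 ± 0.084, 0.40 ± 0.077 and 0.44 ± 0.11).

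Genes of ribosomal proteins and ribosome assembly rose more often than they fell, by small amounts. Of 32 ribosomal proteins 10 rose and 1 fell on top of SGI-110, while alone none rose and 18 fell. The rises numbered 4 at an adjusted p under 0.01. All 32 had a mean count of at least 100, and of the 11759 such genes 2791 rose and 2607 fell on top of SGI-110. The test of the difference placed 21 of the 32 higher, beside 6.09% of all genes. RPS4X was 0.25 ± 0.073 on top of SGI-110 and -0.21 ± 0.073 alone. Of 24 assembly genes 13 rose and none fell, with POLR1A, a subunit of RNA polymerase I, at 0.44 ± 0.045. Of 25 hypoxia and glycolysis genes 13 fell and 3 rose, the glucose transporter SLC2A3 at -1.36 ± 0.073, PFKP at -1.04 ± 0.077 and the lactate exporter SLC16A3 at -1.18 ± 0.12. Of 27 lysosome genes 13 fell and 5 rose, with NPC1, which exports cholesterol from lysosomes, at -0.76 ± 0.054 and GPNMB at -1.59 ± 0.12.

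Genes with no measurable level without SGI-110 were counted apart. Of 7045 genes with no measurable level in DMSO and dasatinib, 2180 had an adjusted p on top of SGI-110, of which 336 (15.4%) fell and 64 (2.94%) rose. Among the 19661 tested genes measurable in DMSO and dasatinib, 17.1% fell and 15.9% rose. An adjusted p needed a mean count of at least 2.15 over all 24 libraries. The 2180 genes were thus selected through counts in other libraries than those where they were not measurable. These shares come from genes counted unlike each other, and what sets them apart was not tested. Of 31 cancer-testis genes, which are silent in most tissues and none of which was measurable in both DMSO and dasatinib, 8 fell and none rose. PRAME fell by 1.28 ± 0.063 and MAGEA12 by 0.85 ± 0.14, while reads of MAGE genes may be split between near-identical copies. Of 33 germline genes 10 fell and none rose. TEX14, TDRD1 and PIWIL2 fell by 0.65 ± 0.089, 0.42 ± 0.065 and 0.47 ± 0.076, from 2.87 ± 0.11, 3.92 ± 0.10 and 3.90 ± 0.13 with SGI-110 against DMSO. DAZL, which binds RNA in germ cells, was -0.44 ± 0.077, with no measurable level in DMSO or dasatinib.

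The machinery of DNA methylation and of decitabine uptake changed modestly. DNMT1, the maintenance methyltransferase, rose by 0.35 ± 0.048, and DNMT3B fell by 0.59 ± 0.086, after standing at 1.63 ± 0.095 with SGI-110 against DMSO. TDG and MBD3 rose by 0.28 ± 0.062 and 0.35 ± 0.078, and in all 7 of 18 members rose and 1 fell. Of 18 genes that handle decitabine 4 rose and 3 fell, where 14.2% of all tested genes rose and 17% fell. The nucleoside transporters SLC29A1 and SLC29A2 fell by 0.37 ± 0.064 and 0.52 ± 0.11, and the ribonucleotide reductase subunit RRM2 rose by 0.33 ± 0.046.

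**Figure D4:**
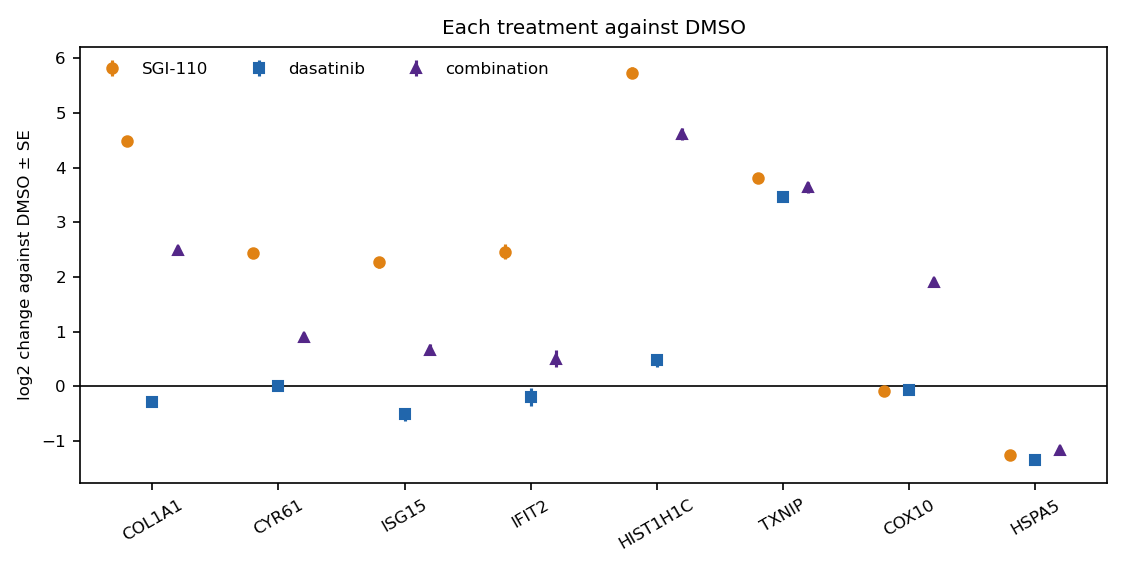
Log2 change against DMSO with its deposited standard error for 8 genes, under SGI-110 (circles), dasatinib (squares) and the combination (triangles). COL1A1 stands at 4.50 with SGI-110 and 2.50 with the combination, TXNIP stands between 3.47 and 3.81 in all 3 treatments, and COX10 is at 1.91 with the combination and near 0 with either drug.

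Markers of cell types other than muscle were low in part and fell more often than they rose. All tested genes gave 17% lower and 14.2% higher, and no list was tested against these shares. An adjusted p was missing for 8 of 17 immune and 3 of 12 epithelial markers. It was also missing for 2 of 12 endothelial, 2 of 16 neural and 1 of 13 fibroblast markers. Of 12 endothelial markers 7 fell and none rose, of 12 epithelial markers 6 fell and 1 rose, of 17 immune markers 6 fell and none rose, of 16 neural markers 4 fell and 2 rose, and of 13 fibroblast markers 4 fell and 2 rose. Their mean counts summed to 1207, 476, 155, 10986 and 36300, where COL3A1 alone gives 29851 of the last. One of the fibroblast rises is PRRX1. Among immune markers 5 of 17 had no measurable level in SGI-110 or the combination, and the highest mean count was 34.5. The endothelial gene PECAM1 was -0.40 ± 0.075 on top of SGI-110 and 1.55 ± 0.080 alone, and the epithelial gene CLDN4 was -1.78 ± 0.13. Their part in the results was not tested. Of 30 receptor tyrosine kinases 9 fell and 2 rose, of 23 tyrosine phosphatases 10 fell and 1 rose, with PTPRF at -0.92 ± 0.060, and of 24 Wnt and hedgehog genes 8 rose and 7 fell, with GLI1 at 0.33 ± 0.064 and the Wnt inhibitor DKK3 at -1.19 ± 0.11.

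The genes with the strongest differences behaved in distinct ways. TXNIP, an inhibitor of thioredoxin that follows glucose supply, was 3.47 ± 0.095 with dasatinib alone and -0.18 ± 0.086 on top of SGI-110, a difference of -3.65 ± 0.13 (adjusted p = 5.04e-173). Against DMSO it stood at 3.81 ± 0.095 with SGI-110 and 3.64 ± 0.095 with both, so that it was high in each of the 3 treatments. DMBT1, a scavenger receptor protein, was 2.47 ± 0.089 alone and -0.43 ± 0.084 on top of SGI-110, with SGI-110 itself at 2.41 ± 0.089. The calcium pump ATP2B4 was 1.35 ± 0.056 alone and -0.54 ± 0.054 on top of SGI-110, with SGI-110 at 1.01 ± 0.057. On the higher side, besides COX10, HSPA5 and DDIT3, were the sulfhydryl oxidase QSOX2 (-0.68 ± 0.045 alone, 0.27 ± 0.049 on top of SGI-110), the splicing factor SRSF6 (-0.25 ± 0.049 and 0.63 ± 0.049) and the cleavage factor CPSF7 (-0.22 ± 0.042 and 0.54 ± 0.043). Other large changes went the same way in both settings. CAPN6 was 3.16 ± 0.37 alone, CPA4 was -3.21 ± 0.12 and SMOC1 was 1.83 ± 0.083; the difference for CPA4 was 0.58 ± 0.14, and for CAPN6 and SMOC1 it did not pass the test.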

How the data were processed

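Messenger RNA libraries (TruSeq Stranded mRNA, paired reads of 75 bases) of Rh30 and RD cells were processed by the submitters, whose processing notes name, with no roles, the build GRCh38 and DESeq2 1.16.1, DESeq, HISAT2 2.1.0, Trim Galore 0.4.2 and featureCounts 1.5.1. The files are 4 tables of the authors' comparisons with 29639 genes each. The deposited signal of a gene is its mean normalised count over libraries (baseMean), identical in the 4 tables. The deposited score of a gene is its Wald statistic, and the deposited p-value and adjusted p come from that test. The deposited standard error is on the log2 scale. A log2 change was computed as statistic times standard error, and combination minus SGI-110 against DMSO matched the deposited contrast within 0.00152. A total of 6896 genes, all with a mean count up to 2.15, had no adjusted p. For 27 genes the name reads as a date, and these are not named.

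Group variances were solved from the deposited standard errors; a level was called not measurable at a group standard error of at least 1.18 log2, which a wide spread between libraries can also give. The difference from dasatinib alone was tested with a two-sided Wald test on the summed squared standard errors, adjusted by Benjamini-Hochberg over 29639 genes, in Python 3.11.15 (NumPy 2.4.6, pandas 2.3.3, SciPy 1.17.1). The test was also run on changes simulated from the same standard errors. Such a run cannot check those errors, or that both comparisons are of the same line. P-values measure the spread between the libraries fitted. No depth or value per library was used. Genes were named by a rule: the 12 largest rises and 12 largest falls with a mean count of at least 100 and a standard error under 0.5, the 6 largest statistics each way, up to 4 and 2 members per list in the main and the other direction, the SRC and ABL kinases, and the 6 strongest differences each way. Outside it, DES, MYOD1 and MYF5 were set as muscle markers, with earlier results of these data known. CTGF, ACTB, ACTG1, FOS, STAT2, IFIT1, IFIT5 and the neighbours of COX10 were chosen after their values were seen. Some genes that the rule names are not reported here. The members, the rule and the 48 lists were chosen with earlier results of these data known. No set test was run. Alternatives were a stricter threshold, a minimum change, filters on the mean count and on measurable groups, another adjustment and centring. Gene positions are from GENCODE 29 on GRCh38, and promoters from RefSeq GRCh38.p14.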

Additional observations from a re-analysis of the deposited data

Results flagged for a closer look

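Each value here was chosen because the effect of dasatinib differed between cells with and without SGI-110. The test was a two-sided Wald test of the difference, adjusted over all 29639 genes, which placed 1804 genes higher and 2517 lower on top of SGI-110 than alone. Of the 199 genes given by name, 124 passed it with a measurable level in all 4 treatments, 37 higher and 87 lower. Values are the log2 change on top of SGI-110 minus that of dasatinib alone. No library's own value can be shown, so the number of replicates that carry each direction is unknown.

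Genes outside the lists had a difference of -4.65 for DNAH3, -2.90 for DMBT1, -2.46 for AFAP1L2, -1.90 for ATP2B4, -1.76 for LA16c-312E8.4, -1.72 for PDE4B, -1.71 for ACSBG1, -1.67 for C1S and -1.62 for MEGF6. Positive values were 2.27 for AC005224.2, 2.06 for COX10, 1.28 for DIO2, 1.10 for HS3ST3B1, 0.95 for QSOX2, 0.89 for COX10-AS1, 0.88 for SRSF6, 0.81 for ACKR3, 0.76 for CPSF7, 0.58 for CPA4, 0.50 for PON2 and 0.41 for DYSF. Kinases and tyrosine phosphatases had a difference of -0.72 for PTPRF, -0.50 for LYN, -0.50 for EPHB2, -0.42 for FYN, -0.36 for ABL2 and -0.32 for YES1. Adhesion, cytoskeleton and YAP or TAZ target genes had a difference of -3.37 for NEDD9, -1.83 for TGFB2, -1.71 for CTGF, -1.54 for CYR61, -0.83 for AXL, -0.57 for ITGA3, -0.43 for FILIP1L, -0.42 for ACTB and -0.38 for TPM1. Positive values were 0.27 for PARVA and 0.27 for TPM2. Matrix, protease and TGF-beta genes had a difference of -1.71 for COL1A1, -1.28 for THBS1, -0.79 for BHLHE40, -0.47 for SMAD6, -0.37 for COL12A1 and -0.22 for ADAMTS1.

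Immediate early, ERK, STAT3, Notch and Wnt genes had a difference of -2.29 for FOS, -1.66 for PIM1, -1.11 for SOCS3, -0.96 for NOTCH3, -0.89 for KLF6, -0.81 for ETV4, -0.74 for HEYL, -0.73 for DKK3, -0.70 for BCL6, -0.65 for OSMR, -0.60 for JAG1, -0.60 for EGR1, -0.49 for NOTCH1, -0.27 for ATF3 and -0.26 for JUN. Muscle genes and PAX3-FOXO1 targets had a difference of -2.18 for XIRP1, -0.92 for AGRN, -0.59 for JPH2, -0.44 for MYOG, -0.43 for TNNI1, -0.35 for DES and -0.34 for PAX3. Positive values were 2.87 for MYOM2, 1.11 for CACNA1S, 0.80 for ALK, 0.72 for PIPOX, 0.34 for POU4F1 and 0.29 for CHRNA1. Interferon, antigen presentation and inflammatory genes had a difference of -1.76 for IFIT2, -1.76 for DDX60, -1.75 for IFIT1, -1.09 for ISG15, -1.05 for IFI44 and -0.43 for TAP1. Positive values were 1.13 for ERAP1, 0.61 for HLA-B, 0.38 for STAT2 and 0.34 for NFKB1. Lipid synthesis genes had a difference of -1.19 for MSMO1, -1.10 for FDFT1, -0.93 for FADS2, -0.65 for FASN, -0.58 for SCD and -0.41 for FADS1.

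ER chaperone, ATF4, ribosome, hypoxia and lysosome genes had a difference of -1.65 for SLC16A3, -0.85 for PFKP, -0.61 for SLC2A3, -0.45 for NPC1 and -0.36 for PSAT1. Positive values were 1.63 for GPNMB, 1.43 for HSPA5, 1.28 for DDIT3, 0.90 for CRELD2, 0.67 for HSP90B1, 0.55 for PDIA4, 0.46 for RPS4X and 0.41 for POLR1A. Cell cycle, p53, apoptosis, FOXO and histone genes had a difference of -3.65 for TXNIP, -1.81 for HIST1H2BG, -1.60 for HIST1H1C, -1.31 for HIST2H2BE, -1.05 for FBXO32, -0.93 for PMAIP1, -0.63 for CITED2, -0.53 for CDKN1A, -0.43 for MKI67, -0.40 for KIF11 and -0.40 for BCL2L1. Positive values were 0.36 for CDK4 and 0.22 for MCM3. Germline, DNA methylation and nucleoside genes had a difference of -1.64 for TDRD1, -1.43 for TEX14, -1.07 for DNMT3B, -1.03 for SLC29A2 and -0.90 for PIWIL2. Positive values were 0.32 for MBD3, 0.27 for TDG and 0.24 for DNMT1. Markers of other cell types had a difference of -1.94 for PECAM1 and -1.29 for CLDN4.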

How the results depend on the processing

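No paired analysis was possible because the deposited tables hold no value per library, and for the same reason no replicate could be left out. The counts of 3237 rises and 3860 falls, and of 1804 and 2517 differences from dasatinib alone, stayed within 1.5 times under a threshold of 0.01, a mean count of at least 10 or 100, measurable groups only and centring on the median. The same held for rises and falls when p was adjusted over every gene with a p. A minimum change of 1 log2 left 337 rises, 1115 falls and differences of 306 and 506. That setting keeps fewer genes by construction. Of the 199 genes named, FYN passed the test neither when changes were centred (adjusted p = 0.0868) nor with adjustment over every gene (0.0507), and the other genes kept their direction and call. Of 96 list counts, 10 moved by over 1.5 times at a threshold of 0.01 and 8 with centring, all of them counts of at most 10 members. Rises in the SRC and ABL and the epithelial lists went to 0 in both, and falls in the mitosis and PAX3-FOXO1 lists went to 0 at 0.01, where rises of ribosomal proteins went from 10 to 4. Low counts limit these tables: 6896 genes had no adjusted p.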

Other observations

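Of the 29639 gene names, 21527 matched GENCODE 29, and those with an adjusted p were counted by class and chromosome with no test. Among 509 lincRNA genes 79 fell and 44 rose, among 510 antisense genes 52 fell and 33 rose, and among 14912 protein-coding genes 3227 fell and 2828 rose. On chromosome X 124 of 700 genes rose and 94 fell. On chromosome 17, which holds COX10, 174 of 1028 rose and 236 fell, much as on chromosome 1, where 315 of 1775 rose and 383 fell. Over all 22743 tested genes, matched or not, 14.2% rose and 17% fell.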
